A study of Oryza sativa Indica Group with 2 samples.

Results

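The genes described here are the EF1-alpha (elongation factor 1-alpha) genes that lie in tandem on rice chromosome 3, given as LOC_Os03g08010, LOC_Os03g08020, LOC_Os03g08050 and LOC_Os03g08060, and the TCTP (translationally controlled tumour protein) gene LOC_Os11g43900 on chromosome 11. The 5 loci were chosen by their high expression values in these libraries and by their near-identical copies, so their high levels are a description and not a result of a comparison. The expression table analysed held rows for 4 of the 5 loci, with 5 transcript models, out of 55337 loci and 65535 transcript models with rows. Whether rows are missing from it was not checked. Ranks and shares over all loci are therefore over the loci with rows. LOC_Os03g08060 was not analysed here, and every EF1-alpha sum or share below is over the other 3 copies.

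EF1-alpha is the GTPase that carries aminoacyl-tRNA to the ribosome at each step of translation elongation, and the exchange factor eEF1B recharges it with GTP. It is among the most abundant proteins of eukaryotic cells, it binds actin, and its mRNA is a common internal reference for qRT-PCR in plants. TCTP is a small conserved protein linked to cell growth, and in human cells it binds EF1-alpha and eEF1B and slows the exchange of the nucleotide.

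Poly(A) RNA was sequenced from spikelets of young panicles whose meiocytes were in prophase I, with 1 library from *Osam1* plants and 1 from wild-type plants, both of the *indica* variety Zhongxian 3037 and both grown in a paddy field. The *Osam1* mutant was obtained with gamma rays and carries a small deletion in an exon of *OsAM1* that leads to a premature stop codon, and its pollen mother cells stop in leptotene. Each library pooled spikelets of several panicles, which hold many cell types besides meiocytes, so that fewer cells of a type and less RNA per cell cannot be told apart. With 1 library per genotype no difference below has a replicate check, and no p-value was computed.

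The values are FPKM, fragment numbers normalized for transcript length and sequencing depth, and are therefore comparable between genes per length. The heading of the *Osam1* column ends in capital letters (AA) and that of the wild-type column in small ones (aa), whereas by convention capital letters stand for the wild-type allele and small ones for the mutant allele. The submitters' labels were kept, every direction below rests on them, and with the labels exchanged every log2 ratio changes its sign. The table gives no read counts, but among 4326 loci with 1 transcript model and low values the most frequent ratio between the libraries was 2.37, with further peaks where that ratio is divided by 2, 3 and 5. Such steps are what whole reads would give if the wild-type-labelled library were 2.37 times as deep as the *Osam1*-labelled one. The read totals listed with the study have the mutant library as the deeper one, which is the opposite order, so it is uncertain which column belongs to which genotype. Those totals differ by less than 2.37 times, so an exchange of labels would match the order but not the size of the ratio. Which reads entered the FPKM is not known. The number of reads behind each locus is unknown, so no counting interval is given. As a check of the tissue, the germ cell gene *MEL1* had 22.1 FPKM in the *Osam1*-labelled library and 19.6 FPKM in the wild-type-labelled library, and the anther gene *MIL1* had 7.96 FPKM and 4.48 FPKM in the same order. Of 8 loci listed as floral MADS-box genes, all were above 0 in both libraries and 7 had the higher value in the *Osam1*-labelled library, with a median log2 ratio of 0.72, and 3 loci listed as leaf genes were all higher there too, with a median of 0.48, while after division by the summed FPKM 6 of the 8 and 2 of the 3 were higher. The part of these differences in the values below was not tested.

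LOC_Os03g08020 was the highest of the analysed EF1-alpha loci. It had 1751 FPKM in the *Osam1*-labelled library and 1460.3 FPKM in the wild-type-labelled library, which placed it at rank 41 and rank 44 among all loci. It stood at a similar rank in both libraries, and its log2 ratio was 0.26, after 1 FPKM was added to each value as for all ratios below. LOC_Os03g08010, its direct neighbour by locus number, had 1220.4 FPKM in the *Osam1*-labelled library and 881.7 FPKM in the wild-type-labelled library, at ranks 69 and 106, with a log2 ratio of 0.47. LOC_Os03g08050 was the lowest of the 3 copies, with 735.2 FPKM in the *Osam1*-labelled library and 459.5 FPKM in the wild-type-labelled library, at ranks 156 and 277. Its log2 ratio of 0.68, a ratio of 1.60 between the deposited values, was the largest of the analysed members. Each of these 3 loci has 1 transcript model in the table, so the values of the locus and of its model are the same.

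All 3 copies thus had the higher value in the *Osam1*-labelled library, except that LOC_Os03g08020 came to a log2 ratio of -0.006 when each value was divided by the summed FPKM of its library. The lower the level of a copy, the larger was its ratio. The copies keep the same order of levels in both libraries. In the deposited values, the difference between the libraries was 290.7 FPKM at LOC_Os03g08020, 338.7 FPKM at LOC_Os03g08010 and 275.7 FPKM at LOC_Os03g08050. This is a narrow range beside the spread of their levels, but it depends on the scaling. As shares of the summed FPKM, LOC_Os03g08020 had 0.127% in the *Osam1*-labelled library and 0.128% in the wild-type-labelled library. LOC_Os03g08010 had 0.0887% and 0.0772%, and LOC_Os03g08050 had 0.0534% and 0.0402%, with the *Osam1*-labelled library first. No replicate spread is available to say whether neighbours in the order of levels differ beyond error.

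**Figure D1:**
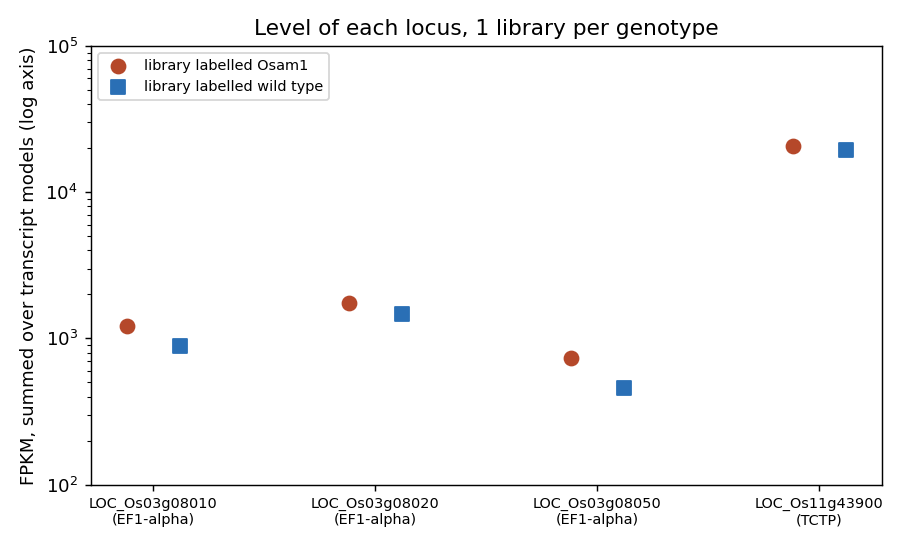
FPKM of each analysed locus, summed over its transcript models, on a log axis, in the *Osam1*-labelled library (circles) and the wild-type-labelled library (squares), with 1 library per genotype and no error bars. The 3 EF1-alpha loci lie between 459.5 FPKM and 1751 FPKM, and TCTP lies at 20557 FPKM and 19555 FPKM.

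For transcripts of equal length, the sum over the analysed copies would not depend on how reads were divided among these 3. Their lengths were not compared here. Reads given to LOC_Os03g08060, or left out because they fit several copies, are not in the sum. The 3 analysed copies together had 3706.5 FPKM in the *Osam1*-labelled library and 2801.4 FPKM in the wild-type-labelled library, a ratio of 1.32 and a log2 ratio of 0.40. This sum was 279 times the median of the loci above 0 in the *Osam1*-labelled library and 230 times that median in the wild-type-labelled library. It made up 0.269% of the summed FPKM in the *Osam1*-labelled library and 0.245% in the wild-type-labelled library.

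The division of this sum among the copies was compared next, since it does not depend on the scaling of the libraries. LOC_Os03g08020 held 47.2% of the sum in the *Osam1*-labelled library and 52.1% in the wild-type-labelled library, a difference of -4.89 percentage points. LOC_Os03g08010 held 32.9% in the *Osam1*-labelled library and 31.5% in the wild-type-labelled library. LOC_Os03g08050 held 19.8% in the *Osam1*-labelled library and 16.4% in the wild-type-labelled library. The level of LOC_Os03g08020 was 2.38 times that of LOC_Os03g08050 in the *Osam1*-labelled library and 3.18 times in the wild-type-labelled library, which was the most uneven pair, with a difference of -0.42 on the log2 scale. LOC_Os03g08020 was 1.44 times LOC_Os03g08010 in the *Osam1*-labelled library and 1.66 times in the wild-type-labelled library. The sequences of the copies were not compared here, and how the authors assigned a read that fits several copies is not given in the sources used here, so that levels of single copies are uncertain.

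**Figure D2:**
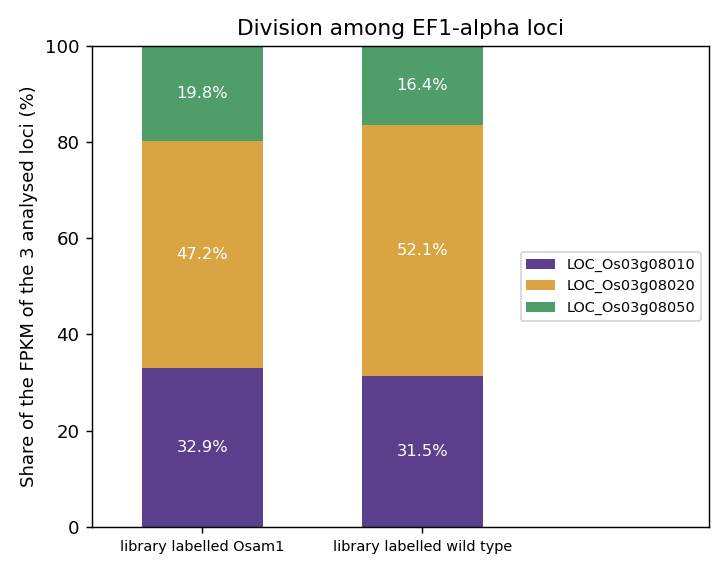
Share of each EF1-alpha locus in the summed FPKM of the 3 analysed loci, in percent, in the *Osam1*-labelled library (left) and the wild-type-labelled library (right). LOC_Os03g08020 holds the largest share in both, with 47.2% and 52.1%.

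Copies that cannot be told apart can show the same value in such a table. Across the whole table, 161 pairs of FPKM values above 0 in both libraries were shared exactly by transcript models of different loci, 7 of them at 100 FPKM or more in the *Osam1*-labelled library. LOC_Os04g16834 on chromosome 4 and LOC_Os05g22716 on chromosome 5, for example, both had 2281.3 FPKM in the *Osam1*-labelled library and 1862.7 FPKM in the wild-type-labelled library. None of the 4 member models with values above 0 in both libraries shared its values with another locus. Copies that share reads can still differ in FPKM, for example through transcript length. The absence of equal values therefore does not show that reads of the 3 EF1-alpha copies were told apart.

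The 3 analysed EF1-alpha loci had far higher levels than the other loci around them. From LOC_Os03g07910 to LOC_Os03g08200 the table holds 27 other loci, of which 13 (48.1%) were listed at 0 in both libraries, close to the 50.3% of all loci. These 13 include LOC_Os03g08030 and LOC_Os03g08040, which lie between LOC_Os03g08020 and LOC_Os03g08050. The highest of the other loci had 30.02 FPKM in the *Osam1*-labelled library, at LOC_Os03g08080, and 68.3 FPKM in the wild-type-labelled library, at LOC_Os03g07990. The lowest analysed EF1-alpha copy was 24.5 times the highest of the other loci in the *Osam1*-labelled library and 6.73 times in the wild-type-labelled library. Among the other loci, 4 had a value at least 2-fold higher in the *Osam1*-labelled library and 2 a value at least 2-fold lower, with no level above 68.3 FPKM, against 9.57% and 11.2% of all loci in these directions. High expression of adjacent loci was not limited to EF1-alpha. Of the 244 loci that averaged 500 FPKM or more, 19 formed 10 adjacent pairs, and LOC_Os03g08010 with LOC_Os03g08020 was 1 of these pairs. Some pairs hold the same values at both loci and may not be separate signals. LOC_Os12g37410 and LOC_Os12g37415, for example, both had 560.9 FPKM in the *Osam1*-labelled library and 580.01 FPKM in the wild-type-labelled library.

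**Figure D3:**
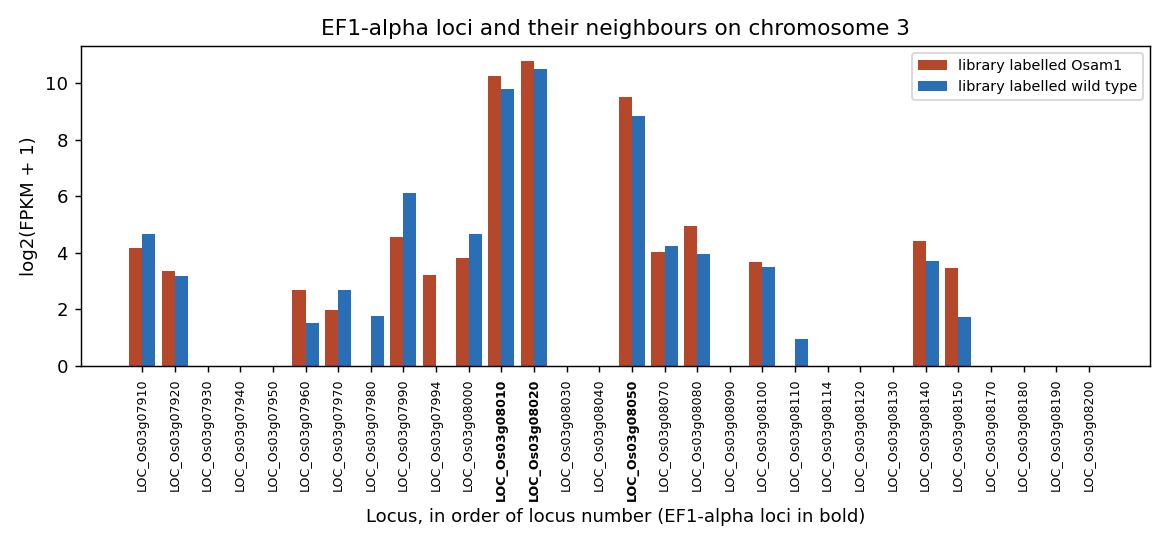
log2(FPKM + 1) of the loci from LOC_Os03g07910 to LOC_Os03g08200 in order of locus number, with the *Osam1*-labelled library as the left bar and the wild-type-labelled library as the right bar of each pair. The 3 EF1-alpha loci, in bold, stand above all 27 other loci, and a missing bar is a value listed at 0.

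TCTP was the second most abundant locus of the table in both libraries. LOC_Os11g43900 had 20557 FPKM in the *Osam1*-labelled library and 19555 FPKM in the wild-type-labelled library, a ratio of 1.05 and a log2 ratio of 0.07. As a ratio the values of the libraries lay closer than at any other analysed member, and the direction turned when each was divided by the summed FPKM of its library, with a log2 ratio of -0.20. This level was 1549 times the median of the loci above 0 in the *Osam1*-labelled library and 1606 times in the wild-type-labelled library. LOC_Os09g01000 on chromosome 9, the only locus above TCTP, had 14.7 times its FPKM in the *Osam1*-labelled library and 4.34 times in the wild-type-labelled library. The locus below TCTP was not the same in both libraries. It was LOC_Os08g03579, with 14842 FPKM, in the *Osam1*-labelled library, where TCTP had 20557 FPKM, and LOC_Os11g47760, with 11166 FPKM, in the wild-type-labelled library.

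TCTP has 2 transcript models, and nearly all of its signal was given to the first. Transcript model 1 had 20553 FPKM in the *Osam1*-labelled library and 19555 FPKM in the wild-type-labelled library, which was 99.98% of the locus in the *Osam1*-labelled library and 100% in the wild-type-labelled library. Transcript model 2 had 4.22 FPKM in the *Osam1*-labelled library and was listed at 0 in the wild-type-labelled library. Among the 5 member models it alone was past 2-fold, where 11.3% of all transcript models were at least 2-fold higher in the *Osam1*-labelled library, and at 0.0205% of the locus it has no effect on the sum. Of the 31 loci with several transcript models and at least 1000 FPKM in both libraries, 28 had the same leading model in both, and in 11 that model held over 99% of the locus in both, as in TCTP.

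The ratio of TCTP to EF1-alpha is free of the scaling of the libraries as well. TCTP had 5.55 times the FPKM of the 3 EF1-alpha copies together in the *Osam1*-labelled library and 6.98 times in the wild-type-labelled library. The difference on the log2 scale was -0.33. Against LOC_Os03g08020 alone TCTP was 11.7 times higher in the *Osam1*-labelled library and 13.4 times higher in the wild-type-labelled library.

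None of the 4 analysed loci reached the 2-fold threshold of the study, without its false discovery rate, which would need reads per gene. Over all 55337 loci, most of them with low values, 20.8% were at least 2-fold apart. This share is held down by the 50.3% of loci listed at 0 in both libraries, which cannot be 2-fold apart. The share was 9.41% in the class of 85 loci that averaged 1000 FPKM or more. Highly expressed loci as a class tended to higher values in the *Osam1*-labelled library. Of the 244 loci that averaged 500 FPKM or more, 168 were higher there, with a median log2 ratio of 0.25 and quartiles of -0.10 and 0.59, whereas with each value divided by the summed FPKM of its library 113 were higher and the median was -0.022. The ratios of LOC_Os03g08020 (0.26), LOC_Os03g08010 (0.47) and TCTP (0.07) lay within these quartiles, and that of LOC_Os03g08050 (0.68) lay above the upper one.

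**Figure D4:**
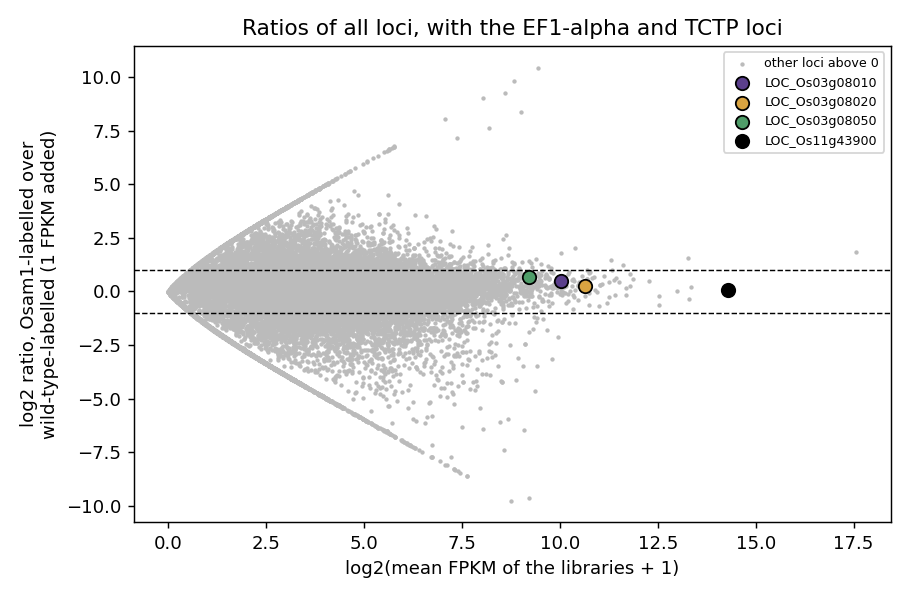
log2 ratio of the *Osam1*-labelled library over the wild-type-labelled library, with 1 FPKM added, against log2(mean FPKM + 1), for every locus above 0 (grey) and the 4 analysed loci (coloured). Dashed lines mark 2-fold, and the 4 loci lie between them, at 0.07 to 0.68.

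The ratios of such abundant genes turn on the scaling of the libraries. LOC_Os09g01000 alone took 22.0% of the summed FPKM in the *Osam1*-labelled library and 7.43% in the wild-type-labelled library. As shares of the summed FPKM, TCTP made up 1.49% in the *Osam1*-labelled library and 1.71% in the wild-type-labelled library, so that its direction was turned, since this scaling lowers the log2 ratio of an abundant locus by 0.27. Without LOC_Os09g01000 the shares of TCTP were 1.91% in the *Osam1*-labelled library and 1.85% in the wild-type-labelled library. Dividing by the median ratio over loci that had 1 FPKM or more in each library gave a log2 ratio of 0.002 for TCTP. LOC_Os03g08010, LOC_Os03g08050 and the EF1-alpha sum kept the higher value in the *Osam1*-labelled library under all 4 scalings tried, with log2 ratios of 0.20 to 0.45, 0.41 to 0.66 and 0.14 to 0.38.

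**Figure D5:**
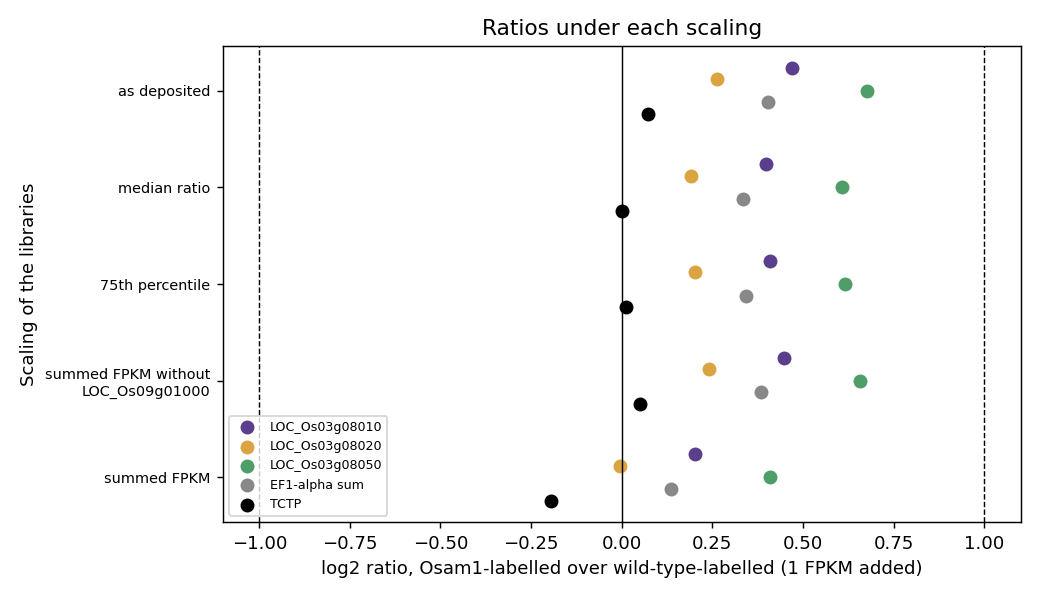
log2 ratio of the *Osam1*-labelled library over the wild-type-labelled library, with 1 FPKM added, for the 3 EF1-alpha loci, their sum and TCTP, as deposited and under each of 4 scalings. TCTP lies within 0.1 of 0 except with the summed FPKM, where it lies at -0.20, and no point reaches the dashed lines at 2-fold.

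The other genes of translation elongation were described by a list of 12 loci, taken from general knowledge of eEF1B, eEF2 and eIF5A genes, which supply exchange, translocation and peptide bond formation. The files do not pair these loci with names, so single loci are given by locus number alone. In the *Osam1*-labelled library, 0 of the 12 were at least 2-fold higher and 1 was at least 2-fold lower, beside 9.57% and 11.2% of all loci. The latter include the 50.3% of loci listed at 0 in both libraries, which cannot be counted in either direction. The median log2 ratio was 0.18, against -0.01 over the 27498 loci above 0 in either library and 0.11 over the 1988 loci that averaged 100 FPKM or more, and with the summed FPKM as the scaling it was -0.09. The locus with the highest level was LOC_Os07g42300 on chromosome 7, with 2226 FPKM in the *Osam1*-labelled library and 2668 FPKM in the wild-type-labelled library. This was above each of the 3 analysed EF1-alpha copies, whose single levels are uncertain, and LOC_Os03g08060 was not compared. LOC_Os06g37440 on chromosome 6 had the highest ratio of the list, 0.79, with 236.1 FPKM in the *Osam1*-labelled library and 135.8 FPKM in the wild-type-labelled library. LOC_Os01g52470 on chromosome 1 had the lowest ratio, -1.30, at low levels of 3.42 FPKM and 9.87 FPKM in the same order. The 12 loci summed to 5889 FPKM in the *Osam1*-labelled library and 5814 FPKM in the wild-type-labelled library. The sums of the 3 analysed EF1-alpha copies were 3706.5 FPKM and 2801.4 FPKM, without LOC_Os03g08060 and any reads left out because they fit several copies.

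Because EF1-alpha is often a reference gene, a list of other loci used for that purpose in rice was described in the same way. The sources used here do not name them, and the 12 loci were taken from general knowledge. In the *Osam1*-labelled library, 0 of them were at least 2-fold higher and 1 was at least 2-fold lower, beside 9.57% and 11.2% of all loci, those at 0 in both libraries included. Of the 12, 8 had the higher value there, beside 56.4% of the loci that averaged 100 FPKM or more, or 6 with the summed FPKM as the scaling, which moved their median log2 ratio of 0.27 to -0.001. The ratio of the EF1-alpha sum, 0.40, and that of TCTP, 0.07, both lay inside the range of this list. LOC_Os08g03290 on chromosome 8 had the highest ratio of the list, 0.91, with 590.01 FPKM in the *Osam1*-labelled library and 312.9 FPKM in the wild-type-labelled library. LOC_Os02g16040 on chromosome 2 had the lowest, -1.53, with 39.9 FPKM in the *Osam1*-labelled library and 117.3 FPKM in the wild-type-labelled library. The most abundant locus of the list, LOC_Os01g59150 on chromosome 1, had 1023.8 FPKM in the *Osam1*-labelled library and 840.3 FPKM in the wild-type-labelled library, close to the levels of LOC_Os03g08010.

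The loci most like each member were found by the distance of log2(FPKM + 1) over the 2 libraries, which carry little information on a pattern. The nearest locus to LOC_Os03g08020 was LOC_Os04g28180 on chromosome 4, at a distance of 0.012, with 1740 FPKM in the *Osam1*-labelled library and 1467 FPKM in the wild-type-labelled library. The nearest to LOC_Os03g08010 was LOC_Os03g17690 on chromosome 3, at 0.037, and the nearest to LOC_Os03g08050 was LOC_Os10g27190 on chromosome 10, at 0.028. No analysed EF1-alpha copy was among the 3 nearest loci of another. TCTP had no close neighbour in level. Its nearest locus, LOC_Os03g46770 on chromosome 3, was at a distance of 1.35, with 11113 FPKM in the *Osam1*-labelled library and 9683 FPKM in the wild-type-labelled library.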

How the data were processed

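Spikelet poly(A) RNA of *Osam1* and wild-type plants was sequenced as 1 library each, after 18 cycles of PCR and with no strand kept. The authors filtered out adaptor and low-quality reads, used SOAPaligner/soap2 for alignment to the rice genome and ERANGE for expression levels. The deposited unit is FPKM for each transcript model, with 2 decimals. The annotation release and the treatment of reads with several matches are not given in the sources used here.

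Values were summed over the transcript models of each locus, 1 FPKM was added to each sum, and the log2 ratio of the *Osam1*-labelled library over the wild-type-labelled library was taken. A value of 1 or more in size was counted as 2-fold. No test was run, since each genotype has 1 library. The member loci and the gene lists were chosen with earlier results of these data known. Named loci were the members, their neighbours, the 3 nearest loci by level, the most abundant loci and, of each list, the loci with the highest and lowest ratio and the highest level. A list of ribosomal protein genes stayed empty, because none of the 39387 genes of the RefSeq gene table (assembly ASM3414082v1) carries a locus number of the kind used here. That table lists the synonyms EF-1-alpha and TCTP on chromosomes 3 and 11. Sequences were not used here.

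Alternatives were other added values, 4 scalings, single transcript models, exchanged labels and filters on low values. The division by the summed FPKM, with and without LOC_Os09g01000, was chosen after seeing the data. The calculation was run on simulated data without noise, in which the changed loci were set past the threshold. That run checks the arithmetic alone. Python 3.11.15, numpy 2.4.6, pandas 2.3.3 and matplotlib 3.10.9 were used.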

Additional observations from a re-analysis of the deposited data

How the results depend on the processing

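Of 103 values recomputed under an alternative, 83 stayed within 0.1 for a log2 ratio, 5 points for a share or 1.5 times for a count. The other 20 moved further. Some of the 83 could not move by construction. The EF1-alpha loci have 1 transcript model each, so single transcript models leave their ratios, sum and shares as they were. Exchanged labels leave a count of loci at least 2-fold apart unchanged. None of the 4 member loci reached 2-fold under any alternative run. With the summed FPKM as the scaling, TCTP came to -0.20, the EF1-alpha sum to 0.14, and the medians of the elongation and the reference lists to -0.092 and -0.001. With the labels exchanged these values were -0.072, -0.40, -0.18 and -0.27 by construction. Taking the first listed transcript model, 2 loci of the elongation list and 3 of the reference list were at least 2-fold apart, and taking the highest model 2 and 2. The cause was not tested. Of all 55337 loci, 11521 were at least 2-fold apart, and 5669 when both values had to be above 0. Fewer loci were compared there, so the lower count does not mean a lower share. At a mean of at least 100 FPKM, 430 of 1988 loci were at least 2-fold apart. No paired analysis was possible because each genotype has 1 library. The reads behind each value and the replicate spread are unknown, which limits every ratio here.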
